A study of Mus musculus with 25 samples.

Results

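The tumor necrosis factor (TNF) superfamily was followed here as Tnf and every gene whose symbol is Tnfsf or Tnfrsf followed by a number. The deposited tables held 33 such genes among 54752. Of these, 12 encode ligands, 20 encode receptors, and Tnfsf13os is an antisense RNA gene. The genes came from 25 RNA-seq libraries of mouse white adipose tissue, 14 from the epididymal depot (eWAT) and 11 from the inguinal depot (iWAT), in a study of diet-induced obesity and of Acod1, which encodes the enzyme that makes itaconate in activated macrophages. All mice were males of the C57BL/6N strain (C57BL/6NJ in the treatment text). In eWAT, 4 libraries came from wild type (WT) mice on normal chow diet (ND), 5 from WT mice on high-fat diet (HFD) and 5 from Acod1-/- mice on HFD, and in iWAT these numbers were 3, 5 and 3. Knockout mice on ND were not analysed here, so the genotype comparison was made on HFD only. HFD began at 5 weeks of age and lasted 16 weeks, and the labels give 17 and 18 weeks for HFD-fed Acod1-/- iWAT libraries 2 and 3. The knockout is constitutive, so every cell of those mice carried it.

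Most ligands of the superfamily are trimeric membrane proteins that can be shed, and most receptors either carry a death domain, which couples them to cell death and inflammatory signaling, or recruit TRAF adaptors that activate NF-kB. TNF, released chiefly by macrophages in obese adipose tissue, is known for impairing insulin action in adipocytes through TNFR1. Other branches serve lymphocytes: the BAFF branch keeps B cells alive, the costimulatory branch acts on T cells, and the RANK branch is best known from osteoclasts and lymph node formation.

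Reads counted on genes ranged from 31.41 to 52.34 M per library (median 42.09). Levels are given as CPM (counts per M reads on genes, after TMM scaling over all 25 libraries). A difference was called at an adjusted p under 0.1 in edgeR's quasi-likelihood test, with Benjamini-Hochberg adjustment over every gene tested in the depot. The study counts the libraries of each depot as mice of one experiment. Whether the depots came from the same mice is not given in the sources used here, and comparisons between depots treated the libraries as independent. Acod1 had 0 to 9 counts in every library of either genotype and did not check the labels. Adipocyte markers summed to between 20120 and 51640 CPM in every group. The library numbers in the file headers fell into 2 series, and all ND-fed libraries but only 1 HFD-fed WT library of each depot lay in the second, so that diet and series can barely be told apart. Markers of neighboring tissue were also present. Epididymal markers summed to 7872 CPM in ND-fed WT eWAT library 2 and 1091 in HFD-fed Acod1-/- eWAT library 5, against 0 to 228 in the other eWAT libraries. Skeletal muscle markers summed to 7095 CPM in ND-fed WT iWAT library 1, against 5.48 to 432 in the other iWAT libraries.

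Read per length, the most abundant member in all 6 groups was Tnfrsf1a, which encodes TNFR1. Its mean was 53.1 CPM per kb of cDNA in ND-fed WT eWAT, 58.5 in HFD-fed WT eWAT and 55.7 in HFD-fed Acod1-/- eWAT. In iWAT the corresponding means were 32.1, 54.4 and 47.5 CPM per kb. This single gene made up 25.6% (iWAT, ND) to 54.7% (eWAT, ND) of the summed level per kb of all members. The order below it differed between groups. In HFD-fed WT eWAT the next levels were those of Tnfsf12 (22.9 CPM per kb), Tnfrsf12a (18.2) and Tnfrsf1b (15), and in ND-fed WT iWAT they were those of the B cell receptors Tnfrsf13c (18.3) and Tnfrsf13b (13.7).

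**Figure D1:**
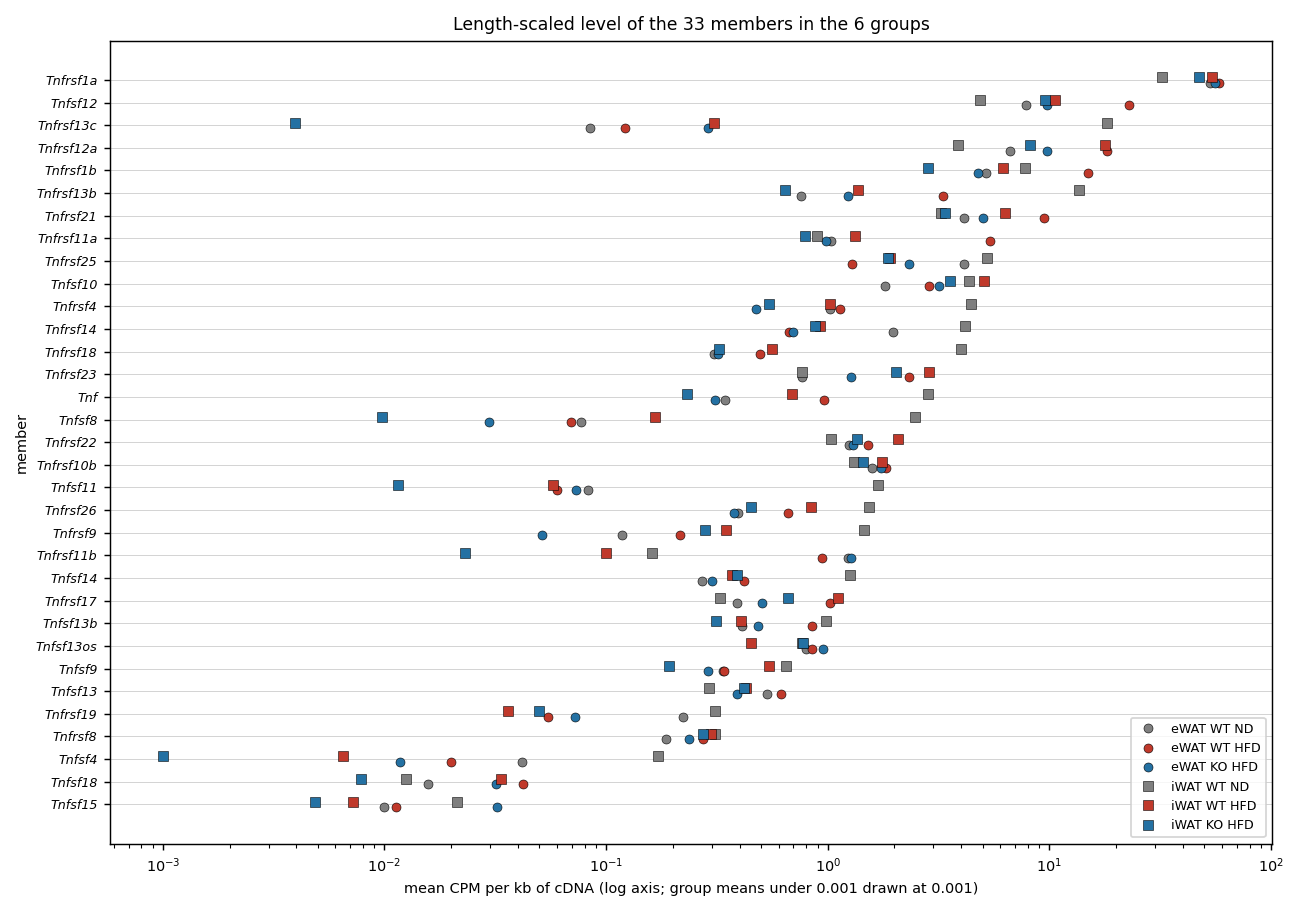
Mean level of each of the 33 members in each of the 6 groups, in CPM per kb of cDNA on a log axis, with means under 0.001 drawn at 0.001. Tnfrsf1a is the highest in every group, and Tnfrsf13c and Tnfrsf13b reach 18.3 and 13.7 CPM per kb in ND-fed WT iWAT.

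In eWAT, HFD feeding of WT mice came with higher levels of 9 members and lower levels of 2, among the 17 members whose mean reached 1 CPM. Over all 14936 genes tested, 24.8% were called higher and 26.9% lower. The 9 were the ligands Tnfsf12, Tnfsf13b and Tnfsf10 and the receptors Tnfrsf1b, Tnfrsf11a, Tnfrsf12a, Tnfrsf13b, Tnfrsf21 and Tnfrsf23, and the 2 that fell were Tnfrsf14 and Tnfrsf25. HFD-fed Acod1-/- mice had lower levels than HFD-fed WT mice for 9 members (10.8% of all genes) and a higher level for 1, Tnfrsf25 (9.13% of all genes). The 9 that were lower were Tnfsf12, Tnfsf13b, Tnfrsf1b, Tnfrsf4, Tnfrsf11a, Tnfrsf12a, Tnfrsf13b, Tnfrsf21 and Tnfrsf23.

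The median log2 difference over the 17 members was 0.74 for diet, against -0.04 over all genes, and -0.80 for genotype, against 0.04 over all genes. The diet and genotype comparisons share the 5 HFD-fed WT libraries, so a high or low value there moves both in opposite directions, and each gene's values are given side by side. In bulk tissue, fewer cells of a type and less RNA per cell cannot be told apart. Summed macrophage markers ran from 509 to 1004 CPM in ND-fed WT, from 2228 to 6727 in HFD-fed WT and from 519 to 1899 in HFD-fed Acod1-/- eWAT libraries. All 12 of these markers rose with diet and fell with genotype, with none at 0, and their part in the members' differences was not tested. Fibroblast and progenitor markers (6 of 7 higher with diet, 4 lower with genotype), mast cell markers (4 of 5 higher, 4 lower), T cell markers (3 of 7 higher, 2 lower) and plasma cell markers (3 of 4 higher, 2 lower) moved the same way. Of 8 adipocyte markers 1 rose and 4 fell with diet and 4 rose with genotype, and of 8 B cell markers 3 rose with diet and 1 with genotype. With diet, 4 of 6 endothelial, 3 of 5 mesothelial and 4 of 5 skin and mammary epithelium markers fell. Their part was not tested either. Without ND-fed WT library 2, with the highest epididymal sum, 8 members were higher and 2 lower with diet, and 9 lower and 1 higher with genotype. Without knockout library 5, with the next highest, these numbers were 9 and 2, and 10 and 1. The genotype count fell to 5 lower and 0 higher without HFD-fed WT library 4, and was 6 to 10 lower without any other library. The share of all genes called was not taken for these fits, so these counts cannot be set against it.

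**Figure D2:**
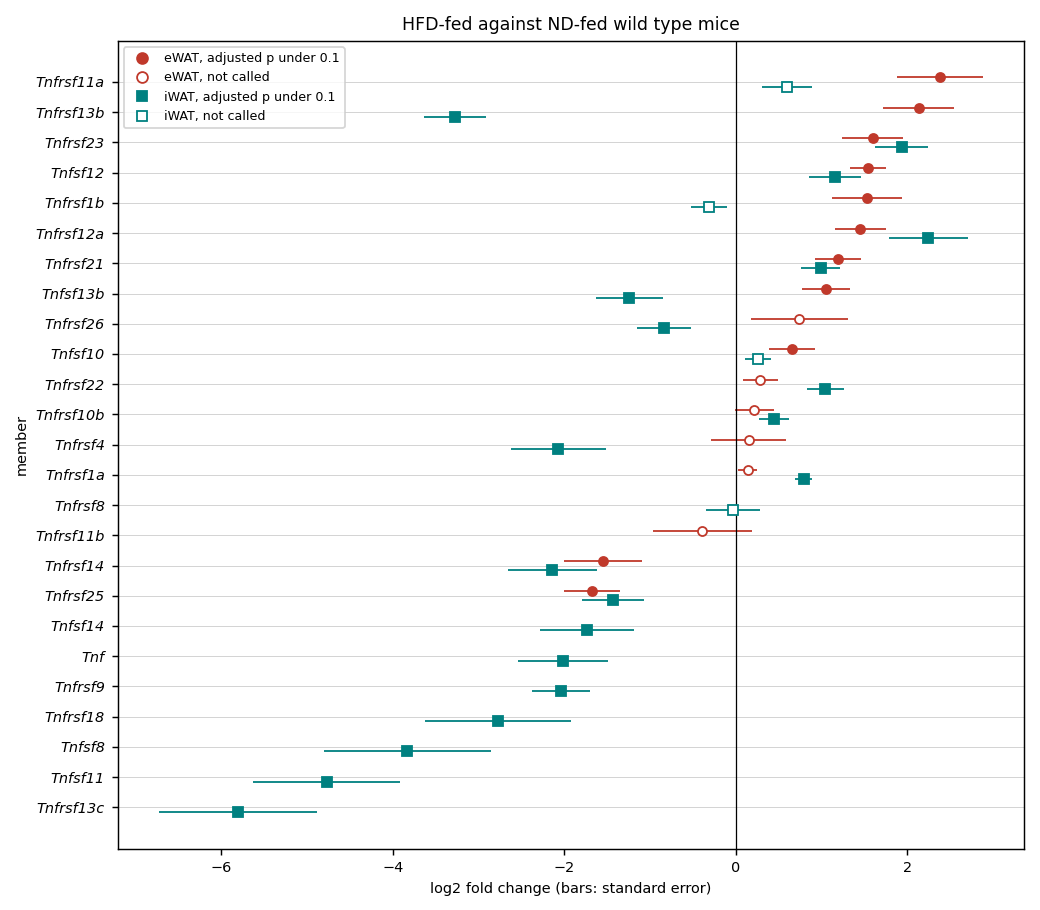
Log2 fold change of HFD-fed over ND-fed WT mice for each member tested, in eWAT and iWAT; bars are standard errors and filled points were called. Tnfrsf12a, Tnfrsf21, Tnfrsf23 and Tnfsf12 are higher in both depots, and Tnfrsf13b lies at 2.13 in eWAT and -3.28 in iWAT.

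Among the ligands, Tnf itself stayed under the 1 CPM minimum in eWAT. Tnf read 0.787, 0.453, 0.857 and 0.156 CPM in the ND-fed WT libraries, 3.05, 2.06, 1.44, 1.03 and 0.262 CPM in HFD-fed WT and 0.299, 0.306, 0.654, 0.879 and 0.391 CPM in HFD-fed Acod1-/- libraries. The groups overlapped, and the highest values were those of HFD-fed WT libraries 1 and 2. Group means were 0.563, 1.57 and 0.506 CPM. In exact permutation tests the two-sided p was 0.111 for diet (126 splits) and 0.0556 for genotype (252 splits), both 0.111 after adjustment over the pair of comparisons. Without the minimum, edgeR gave log2 differences of 1.49 (adjusted p = 0.149) and -1.66 (adjusted p = 0.158). In the first header series alone, which leaves out library 5 of both HFD-fed groups, Tnf reached the minimum. There edgeR called it lower in the knockout (-1.82, adjusted p = 0.0450). It reached a group mean of 1 CPM only in HFD-fed WT mice, so its entry into that test favored this direction.

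Tnfsf12 encodes TWEAK, a ligand that acts on progenitor and stromal cells through Fn14. Tnfsf12 read 14.8, 10.3, 13 and 9.63 CPM in ND-fed WT libraries, 54, 28.4, 30.9, 32.1 and 28.3 in HFD-fed WT and 17.6, 12.7, 16.5, 13.2 and 14 in HFD-fed Acod1-/-. Every HFD-fed WT library lay above every library of both other groups. The gene rose by 1.54 ± 0.21 (SE, adjusted p = 0.000319) on the log2 scale with diet and fell by 1.23 ± 0.19 (SE, adjusted p = 0.011) with genotype. Of its exon bases, 48.3% also belong to the read-through gene Tnfsfm13 on the same strand, whose group means were 0.317 to 1.06 CPM, so its reads may have been split or set aside as ambiguous.

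Tnfsf13b encodes BAFF, the survival factor of B cells. Tnfsf13b read 2.92, 3.12, 3.45 and 1.73 CPM in ND-fed WT libraries, 7.27, 6.45, 4.02, 6.98 and 4.39 in HFD-fed WT and 4.31, 3.33, 2.92, 2.4 and 3.76 in HFD-fed Acod1-/-. HFD-fed WT and ND-fed WT libraries did not overlap, and 1 knockout library, at 4.31 CPM, lay within the HFD-fed WT range. It rose by 1.05 ± 0.28 (SE, adjusted p = 0.00912) with diet and fell by 0.80 ± 0.26 (SE, adjusted p = 0.0587) with genotype. The genotype call was lost without HFD-fed WT library 1, 2 or 4 or HFD-fed Acod1-/- library 3 or 4 (adjusted p 0.107 to 0.134). It was also lost without the 1 CPM minimum (adjusted p = 0.109).

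Tnfsf10 encodes TRAIL, a ligand that can induce apoptosis. Tnfsf10 read 14, 9.06, 7.03 and 8.23 CPM in ND-fed WT libraries, 8.6, 20.1, 17.6, 11.9 and 17.3 in HFD-fed WT and 19.5, 13.5, 22.7, 12.4 and 15.7 in HFD-fed Acod1-/-. The 3 groups overlapped, with the lowest values in ND-fed WT mice. It rose by 0.65 ± 0.27 (SE, adjusted p = 0.0671) with diet, and its genotype difference was 0.15 ± 0.25 (adjusted p = 0.73). The diet call was lost without ND-fed WT library 2, 3 or 4 or HFD-fed WT library 2, 3 or 5 (adjusted p 0.117 to 0.169), and with the header series as a term (adjusted p = 0.172). It was also lost without the 1 CPM minimum (adjusted p = 0.103) and with the replicate number as a block (0.128).

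**Figure D3:**
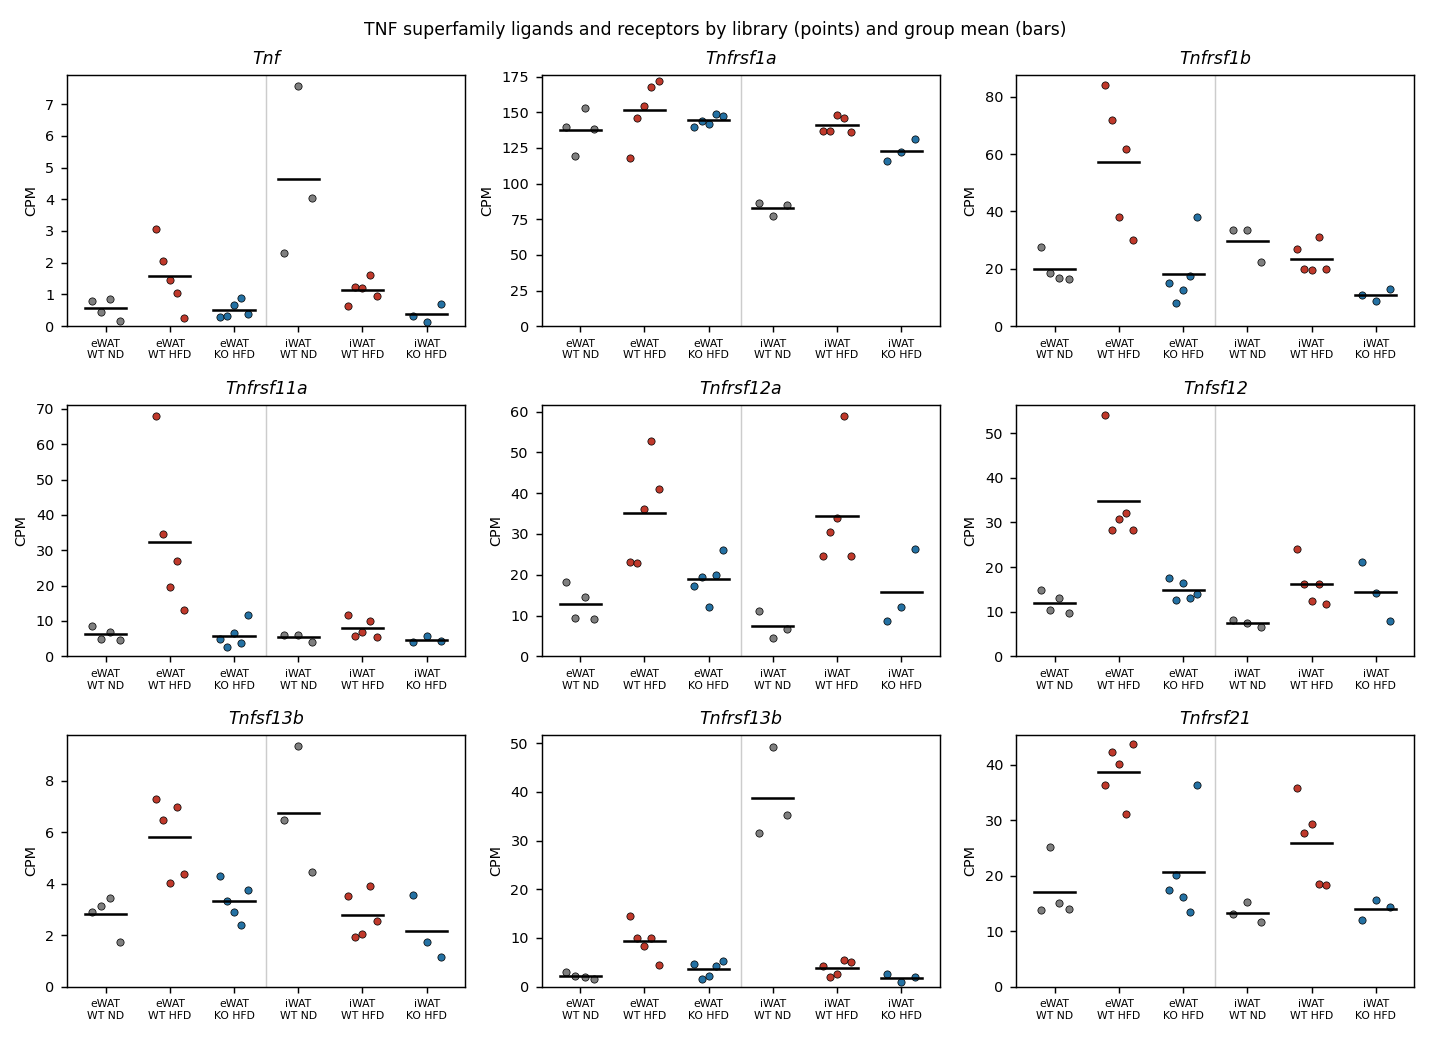
CPM of 9 members in every library, by depot and group, with the group mean as a bar. In eWAT the HFD-fed WT libraries of Tnfsf12 and Tnfrsf11a lie above all libraries of the other groups, while Tnfrsf13b, Tnfsf13b and Tnf have their highest group means in ND-fed WT iWAT.

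The TNF receptors parted in eWAT. Tnfrsf1a, the widely expressed death domain receptor, read 139, 119, 153 and 139 CPM in ND-fed WT libraries, 118, 146, 154, 168 and 172 in HFD-fed WT and 139.5, 144, 142, 149 and 148 in HFD-fed Acod1-/-. These ranges overlapped almost wholly, and the differences were 0.14 ± 0.11 (adjusted p = 0.328) for diet and -0.07 ± 0.11 (adjusted p = 0.7) for genotype. The diet difference was called without HFD-fed WT library 1 (adjusted p = 0.0644). Tnfrsf1b, which encodes TNFR2 of leukocytes and endothelium, read 27.5, 18.6, 16.6 and 16.4 CPM in ND-fed WT libraries, 83.9, 71.9, 37.9, 61.8 and 30.1 in HFD-fed WT and 14.9, 8.01, 12.7, 17.3 and 38 in HFD-fed Acod1-/-. All 5 HFD-fed WT values exceeded the ND-fed ones, and 4 of 5 knockout values lay in the ND range or under it, with library 5 in the HFD-fed WT range. Tnfrsf1b rose by 1.53 ± 0.41 (SE, adjusted p = 0.0098) with diet and fell by 1.65 ± 0.38 (SE, adjusted p = 0.0173) with genotype.

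Tnfrsf11a encodes RANK, the receptor of osteoclast precursors that dendritic cells and macrophages also carry. Tnfrsf11a read 8.5, 4.99, 6.8 and 4.59 CPM in ND-fed WT libraries, 67.9, 34.7, 19.7, 27 and 13 in HFD-fed WT and 4.95, 2.57, 6.59, 3.65 and 11.6 in HFD-fed Acod1-/-. It was 1 of 2 members, with Tnfsf12, whose HFD-fed WT and knockout libraries did not overlap (4.37% of all genes lay lower in this way and 2.79% higher). It rose by 2.38 ± 0.50 (SE, adjusted p = 0.00273) with diet and fell by 2.46 ± 0.46 (SE, adjusted p = 0.011) with genotype, the widest genotype difference among the members tested in eWAT. Its soluble decoy, osteoprotegerin (Tnfrsf11b), had differences of -0.39 ± 0.58 (adjusted p = 0.605) and 0.45 ± 0.55 (adjusted p = 0.628), and the ligand RANKL (Tnfsf11) was under the minimum in this depot.

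Among HFD-fed WT eWAT libraries, number 1 had the highest values for Tnfrsf11a (67.9 CPM), Tnfrsf1b (83.9 CPM) and the macrophage sum (6727 CPM), and number 5 had the lowest (13, 30.1 and 2228 CPM). Tnfsf12 and Tnfrsf13b had the same highest and lowest library. Other members were ordered differently. Tnfrsf21 was highest in number 5 (43.8 CPM, against 36.4 in number 1), and Tnfrsf12a read 41.1 CPM there, against 23.2 in number 1. Tnfsf13b was highest in number 1 but lowest in number 3, and Tnfrsf23 was highest in number 4. The part of the macrophage sum in these orders was not tested. Among knockout libraries, number 5 was highest for both receptors and for the macrophage sum (11.6, 38 and 1899 CPM). The lowest knockout library was number 2 for both receptors (2.57 and 8.01 CPM) and number 3 for the macrophage sum (519 CPM). Knockout library 5, which carried epididymal markers, also led its group for Tnfrsf21 and Tnfrsf23.

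Of the BAFF receptors, Tnfrsf13b (TACI) read 2.97, 2.16, 1.92 and 1.54 CPM in ND-fed WT libraries, 14.5, 9.93, 8.34, 9.96 and 4.37 in HFD-fed WT and 4.56, 1.46, 2.15, 4.13 and 5.24 in HFD-fed Acod1-/-. The WT groups did not overlap, and knockout libraries 1 and 5 lay above the lowest HFD-fed WT library. It rose by 2.13 ± 0.42 (SE, adjusted p = 0.00179) with diet and fell by 1.42 ± 0.37 (SE, adjusted p = 0.0286) with genotype. The other two BAFF and APRIL receptors, Tnfrsf13c and Tnfrsf17, were under the minimum in eWAT. Tnfrsf12a, the TWEAK receptor Fn14, read 18.2, 9.34, 14.6 and 9.2 CPM in ND-fed WT libraries, 23.2, 22.8, 36.1, 52.7 and 41.1 in HFD-fed WT and 17.2, 19.4, 12.1, 19.9 and 26 in HFD-fed Acod1-/-. HFD-fed WT values were all above the ND-fed ones, and knockout library 5 reached above 2 of them. It rose by 1.45 ± 0.30 (SE, adjusted p = 0.00242) with diet and fell by 0.90 ± 0.27 (SE, adjusted p = 0.0495) with genotype. Its genotype call was lost without HFD-fed WT library 4 or HFD-fed Acod1-/- library 3 (adjusted p 0.113 to 0.128).

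Tnfrsf22, Tnfrsf23 and Tnfrsf26 lie together on chromosome 7, between 143607659 and 143685872 on GRCm38, and the first and second of them encode decoys for TRAIL. Tnfrsf23 read 4.13, 2.27, 3.07 and 2.67 CPM in ND-fed WT libraries, 7.49, 9.74, 9.46, 11.8 and 7.47 in HFD-fed WT and 3.78, 5.4, 3.51, 2.61 and 9.85 in HFD-fed Acod1-/-. It rose by 1.60 ± 0.35 (SE, adjusted p = 0.0035) with diet, with no overlap of the WT groups, and fell by 0.87 ± 0.32 (SE, adjusted p = 0.0918) with genotype. The genotype call was lost without ND-fed WT library 3 or 4, HFD-fed WT library 1, 2, 3 or 4 or HFD-fed Acod1-/- library 1, 2, 3 or 4 (adjusted p 0.108 to 0.193). The call on Tnfrsf23 was also lost without the 1 CPM minimum (adjusted p = 0.135) and with only the compared groups fitted (0.125). Its neighbors did not pass either test, with differences of 0.29 ± 0.21 (adjusted p = 0.271) and -0.22 ± 0.19 (adjusted p = 0.483) for Tnfrsf22 and 0.74 ± 0.56 (adjusted p = 0.297) and -0.80 ± 0.53 (adjusted p = 0.336) for Tnfrsf26. Without knockout library 5, Tnfrsf26 was called for genotype (adjusted p = 0.0593). Tnfrsf10b, the TRAIL death receptor, had differences of 0.22 ± 0.22 (adjusted p = 0.452) and -0.08 ± 0.21 (adjusted p = 0.83), and its diet difference was called without ND-fed WT library 1 (adjusted p = 0.0994).

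The remaining death domain receptors moved in opposite directions. Tnfrsf21 (DR6) read 13.8, 25.1, 15 and 13.9 CPM in ND-fed WT libraries, 36.4, 42.4, 40.2, 31.1 and 43.8 in HFD-fed WT and 17.4, 20.1, 16.2, 13.5 and 36.3 in HFD-fed Acod1-/-. It rose by 1.19 ± 0.27 (SE, adjusted p = 0.00392) with diet and fell by 0.90 ± 0.25 (SE, adjusted p = 0.0336) with genotype, and knockout library 5 alone overlapped the HFD-fed WT range. Tnfrsf25 (DR3), known from T cells, read 10.6, 5.11, 11.9 and 9.9 CPM in ND-fed WT libraries, 2.81, 3.81, 3.68, 1.91 and 2.47 in HFD-fed WT and 6.62, 4.02, 7.06, 6.07 and 2.72 in HFD-fed Acod1-/-. All HFD-fed WT values lay below the ND-fed ones. It fell by 1.67 ± 0.32 (SE, adjusted p = 0.00176) with diet and rose by 0.85 ± 0.31 (SE, adjusted p = 0.0855) with genotype. The genotype call was lost without ND-fed WT library 1 or 4, HFD-fed WT library 1, 4 or 5 or HFD-fed Acod1-/- library 1, 3 or 4 (adjusted p 0.103 to 0.19). It was also lost without the 1 CPM minimum (adjusted p = 0.158), with only the compared groups fitted (0.117) and with the replicate number as a block (0.121).

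Of the costimulatory receptors, Tnfrsf14 (HVEM) read 2.88, 2.3, 2.24 and 3.85 CPM in ND-fed WT libraries, 1.09, 1.37, 0.685, 0.569 and 1.11 in HFD-fed WT and 1.74, 0.23, 1.04, 0.906 and 1.09 in HFD-fed Acod1-/-. It fell by 1.54 ± 0.45 (SE, adjusted p = 0.0153) with diet, without overlap of the WT groups, and its genotype difference was 0.06 ± 0.43 (adjusted p = 0.948). With the header series as a term the diet call was lost (adjusted p = 0.147). Tnfrsf4 (OX40), a receptor of activated T cells, read 1.45, 1.12, 1.97 and 1.07 CPM in ND-fed WT libraries, 1.82, 0.645, 1.9, 1.86 and 1.55 in HFD-fed WT and 0.498, 0.536, 1.31, 0.586 and 0.326 in HFD-fed Acod1-/-. It fell by 1.25 ± 0.42 (SE, adjusted p = 0.0675) with genotype, with 4 of 5 knockout libraries below the lowest HFD-fed WT library. Its diet difference was 0.15 ± 0.44 (adjusted p = 0.802). The genotype call was lost without HFD-fed WT library 1, 3 or 4 or HFD-fed Acod1-/- library 1, 2 or 4 (adjusted p 0.112 to 0.135). It was also lost without the 1 CPM minimum (adjusted p = 0.137), with only the compared groups fitted (0.109) and in the first header series alone (0.177).

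**Figure D4:**
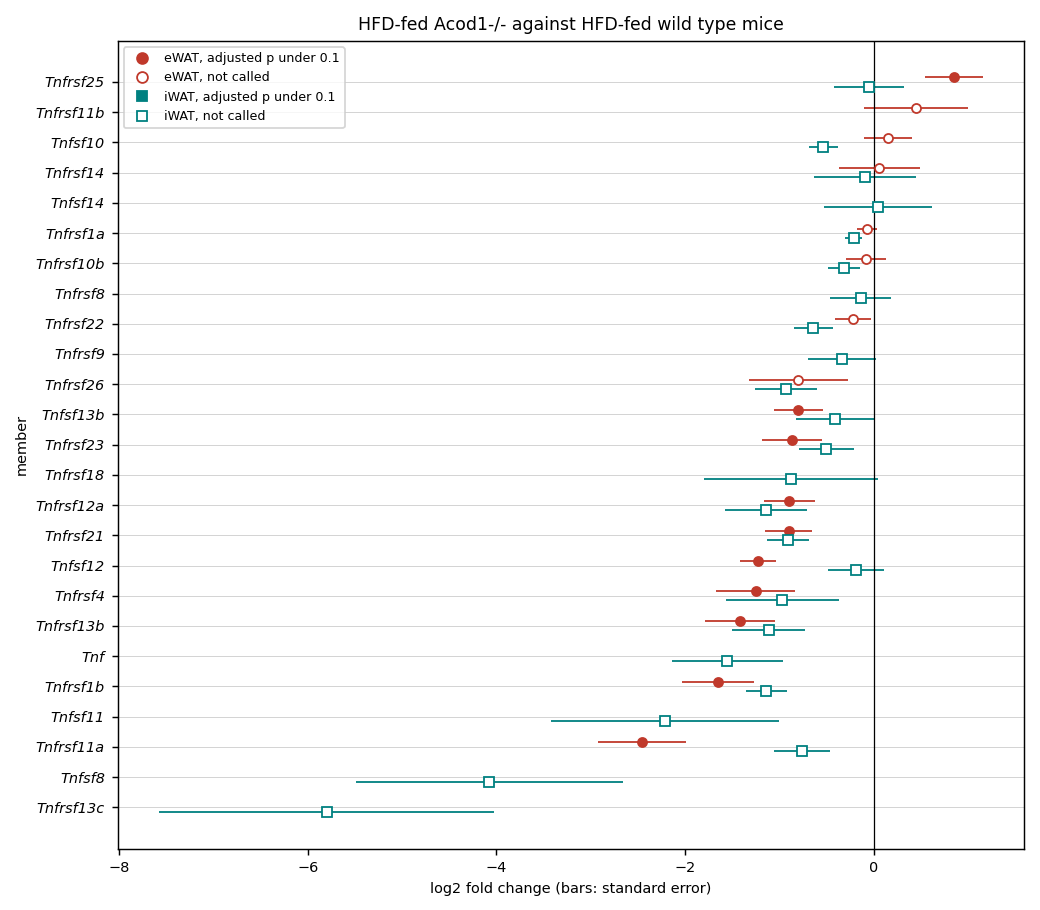
Log2 fold change of HFD-fed Acod1-/- over HFD-fed WT mice for each member tested, in eWAT and iWAT; bars are standard errors and filled points were called. In eWAT 9 members are called lower and 1 higher, and in iWAT none is called, although 23 of 24 points lie below 0, those of Tnfrsf13c, Tnfsf8 and Tnfsf11 resting on 0 to 3 counts in each iWAT knockout library.

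Against the ND-fed WT group, HFD-fed Acod1-/- eWAT had 4 of 17 members called, Tnfsf10 higher (13.5% of all genes) and Tnfrsf4, Tnfrsf14 and Tnfrsf25 lower (13% of all genes). The log2 difference was -0.08 ± 0.47 (adjusted p = 0.923) for Tnfrsf11a, -0.12 ± 0.39 (adjusted p = 0.854) for Tnfrsf1b and 0.31 ± 0.20 (adjusted p = 0.291) for Tnfsf12. All 4 calls were lost with the header series as a term (adjusted p 0.101 to 0.264) and without ND-fed WT library 4. With 1 library left out, Tnfrsf25 was called in 6 of 14 fits, Tnfrsf4 in 3, Tnfsf10 in 9 and Tnfrsf14 in 13.

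Sequence upstream of the start site is shown for Tnf, the founding member, and for members with a searched motif among the 8 called higher on HFD and lower in the knockout in eWAT. Both strands of the 250 bases before each RefSeq start (GRCm38.p6) were searched for the kappa B consensus bound by NF-kB, for GAGGAA, a core of the macrophage factor PU.1, and for TGANTCA, the AP-1 site. Windows were given for 25 of the 33 members and for 7 of the 8. The capitals mark the match, as it reads on the gene's strand.
Tnf, chr17:35202008-35202257 (-): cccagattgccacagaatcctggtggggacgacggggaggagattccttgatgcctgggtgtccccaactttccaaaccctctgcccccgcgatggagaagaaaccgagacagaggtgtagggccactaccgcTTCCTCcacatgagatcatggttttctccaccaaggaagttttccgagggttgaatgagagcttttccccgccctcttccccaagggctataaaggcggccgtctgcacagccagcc
Tnfrsf1b, chr4:145246871-145247120 (-): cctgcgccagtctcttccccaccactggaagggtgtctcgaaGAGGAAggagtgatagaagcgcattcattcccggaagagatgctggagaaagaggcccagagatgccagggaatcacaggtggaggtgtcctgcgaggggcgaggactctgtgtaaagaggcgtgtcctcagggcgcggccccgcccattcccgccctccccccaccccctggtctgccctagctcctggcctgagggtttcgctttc
Tnfrsf21, chr17:43016305-43016554 (+): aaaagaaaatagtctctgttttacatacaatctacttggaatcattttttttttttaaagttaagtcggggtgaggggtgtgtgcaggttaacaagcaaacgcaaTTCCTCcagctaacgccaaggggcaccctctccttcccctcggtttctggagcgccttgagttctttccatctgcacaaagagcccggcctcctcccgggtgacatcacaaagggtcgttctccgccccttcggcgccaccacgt
Tnfsf13b, chr8:10006383-10006632 (+): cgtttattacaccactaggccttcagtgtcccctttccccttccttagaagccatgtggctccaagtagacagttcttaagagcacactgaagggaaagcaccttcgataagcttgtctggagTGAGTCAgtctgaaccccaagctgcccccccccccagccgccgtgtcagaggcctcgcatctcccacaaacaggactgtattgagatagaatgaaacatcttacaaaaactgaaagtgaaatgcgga

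The letters TTCCTC in Tnf and Tnfrsf21 are GAGGAA on the opposite strand. The match began 117 bases before the start in Tnf, 208 in Tnfrsf1b, 145 in Tnfrsf21 and 127 in the second of the windows of Tnfsf13b. The first window of Tnfsf13b ends at 10006466 and held no match, so the match in the second lies past the first start, within the gene. Over the members, GAGGAA was found in 10 of 29 windows (23.3% of all 32851 windows), TGANTCA in 5 (6.75%) and the kappa B consensus in 3 (7.25%). Of the 7 genes with a window among the 8, GAGGAA was in 2, TGANTCA in 1 and the kappa B consensus in 0. A match is a description of these letters only.

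In iWAT the diet comparison split the family. Of 24 members tested, 7 were higher on HFD and 13 lower, against 25.9% and 24.2% of all 14801 genes, and the median difference was -1.04, against 0.00 over all genes. The members that rose were Tnfsf12 and the receptors Tnfrsf1a, Tnfrsf10b, Tnfrsf12a, Tnfrsf21, Tnfrsf22 and Tnfrsf23. Those that fell were Tnf, Tnfsf8, Tnfsf11, Tnfsf13b, Tnfsf14 and the receptors Tnfrsf4, Tnfrsf9, Tnfrsf13b, Tnfrsf13c, Tnfrsf14, Tnfrsf18, Tnfrsf25 and Tnfrsf26. The WT groups did not overlap for 7 members that were higher and 12 that were lower (23.1% and 24% of all genes). Of the 24, 6 (Tnfrsf9, Tnfrsf13c, Tnfrsf18, Tnfsf8, Tnfsf11 and Tnfsf14) reached a group mean of 1 CPM only in ND-fed WT mice. Their entry into the test thus fixed their direction, and the count of lower members is in part set by the minimum.

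Lymphoid markers moved with these values. The 10 T cell markers summed to between 333.8 and 526 CPM in ND-fed WT iWAT, to between 7.66 and 91.8 in HFD-fed WT and to between 3.40 and 15.3 in HFD-fed Acod1-/- libraries, and all 10 fell with diet. Markers of lymph node stroma and follicles summed to between 177 and 328 CPM, 0.0506 and 16.4, and 0.413 and 0.821 in the same groups. In both sums the highest HFD-fed library was WT number 5. The inguinal depot holds a lymph node, the dissection is not described in the labels, and the part of the lymphoid markers in the members' differences was not tested. Of the B cell markers 1 of 9 rose and 8 fell. Other lists moved with diet as well: 9 of 12 macrophage, 6 of 7 fibroblast and progenitor, 6 of 6 endothelial and 4 of 8 adipocyte markers rose, while 5 of 5 skeletal muscle, 4 of 6 dendritic cell and 1 of 8 adipocyte markers fell. Their part was not tested either. Without HFD-fed WT library 5, 9 members were higher and 13 lower with diet, and without ND-fed WT library 1, with the highest muscle sum, 7 were higher and 12 lower. Without ND-fed WT library 2, 9 were lower. The share of all genes called was not taken for these fits, so these counts cannot be set against it.

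**Figure D5:**
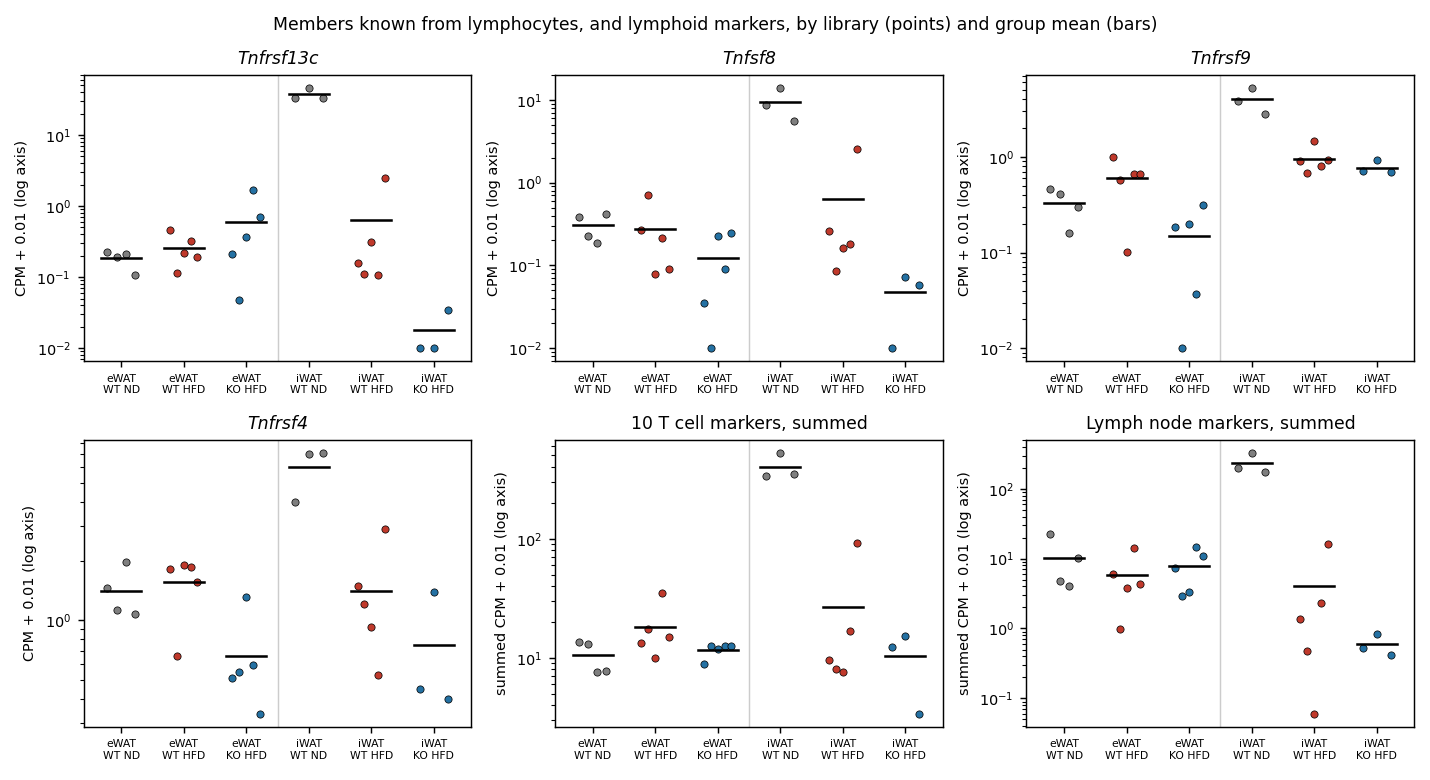
CPM plus 0.01 on a log axis in every iWAT and eWAT library for Tnfrsf13c, Tnfsf8, Tnfrsf9 and Tnfrsf4 and for the summed T cell and lymph node markers. In iWAT the 3 ND-fed WT libraries lie above all HFD-fed ones in each panel, and HFD-fed WT library 5 is the highest HFD-fed library for Tnfrsf13c (2.48 CPM) and Tnfsf8 (2.5 CPM). Tnfrsf13c, Tnfsf8 and Tnfrsf9 reached a group mean of 1 CPM only in ND-fed WT iWAT.

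Among the ligands of iWAT, Tnf read 2.32, 7.56 and 4.04 CPM in ND-fed WT libraries, 0.625, 1.22, 1.21, 1.62 and 0.941 in HFD-fed WT and 0.309, 0.126 and 0.704 in HFD-fed Acod1-/-. ND-fed and HFD-fed WT libraries did not overlap, and 2 of 3 knockout libraries lay below all HFD-fed WT ones. Tnf fell by 2.01 ± 0.52 (SE, adjusted p = 0.0104) with diet, and the genotype difference was -1.55 ± 0.59 (adjusted p = 0.224). With the header series as a term the diet difference was -1.43 (adjusted p = 0.213), and the genotype difference was called without knockout library 3 (adjusted p = 0.0507).

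Tnfsf13b (BAFF) read 6.46, 9.37 and 4.45 CPM in ND-fed WT libraries, 3.53, 1.91, 2.05, 3.9 and 2.56 in HFD-fed WT and 3.55, 1.74 and 1.14 in HFD-fed Acod1-/-. All ND-fed values were above the HFD-fed ones. It fell by 1.24 ± 0.39 (SE, adjusted p = 0.0263) with diet, a call that was lost without ND-fed WT library 2 (adjusted p 0.136). Tnfsf12 (TWEAK) read 8.24, 7.39 and 6.51 CPM in ND-fed WT libraries, 24, 16.2, 12.5, 16.1 and 11.8 in HFD-fed WT and 21.1, 14.2 and 7.99 in HFD-fed Acod1-/-. It rose by 1.16 ± 0.31 (SE, adjusted p = 0.0115), with all HFD-fed WT libraries above the ND-fed ones, but the difference was 0.54 (adjusted p = 0.198) with the header series as a term.

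The other ligands that fell are made by activated lymphocytes. Tnfsf8 (CD30 ligand) read 8.73, 14 and 5.61 CPM in ND-fed WT libraries, 0.25, 0.0765, 0.152, 0.172 and 2.5 in HFD-fed WT and 0, 0.0631 and 0.0485 in HFD-fed Acod1-/-. Tnfsf11 (RANKL) read 3.7, 5.34 and 2.29 CPM in ND-fed WT libraries, 0.10, 0, 0.152, 0.0491 and 0.34 in HFD-fed WT and 0.0772, 0 and 0 in HFD-fed Acod1-/-. Tnfsf14 (LIGHT) read 1.85, 3.69 and 1.45 CPM in ND-fed WT libraries, 1.0, 0.51, 0.379, 0.295 and 1.22 in HFD-fed WT and 1.0, 0.821 and 0.34 in HFD-fed Acod1-/-. For all 3, every ND-fed library lay above every HFD-fed one. All 3 reached a group mean of 1 CPM only in ND-fed WT mice, so their entry into the test fixed their direction. Tnfsf8 fell by 3.83 ± 0.97 (SE, adjusted p = 0.00931), Tnfsf11 fell by 4.77 ± 0.85 (SE, adjusted p = 0.00146) and Tnfsf14 fell by 1.73 ± 0.55 (SE, adjusted p = 0.0262). Tnfsf14 was not called with the header series as a term (adjusted p = 0.155). Tnfsf10 (TRAIL) had a diet difference of 0.26 ± 0.15 (adjusted p = 0.186), which was called without HFD-fed WT library 5 (adjusted p = 0.0526).

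The TNF receptors parted in iWAT as well. Tnfrsf1a read 86.6, 77.5 and 85.1 CPM in ND-fed WT libraries, 137, 137, 148, 146 and 136 in HFD-fed WT and 116, 122 and 132 in HFD-fed Acod1-/-. The 3 groups did not overlap, with ND-fed WT lowest and HFD-fed WT highest. It rose by 0.79 ± 0.10 (SE, adjusted p = 0.000189) with diet, and the genotype difference was -0.22 ± 0.09 (adjusted p = 0.281). Tnfrsf1b read 33.6, 33.5 and 22.2 CPM in ND-fed WT libraries, 27.1, 19.99, 19.5, 31 and 19.8 in HFD-fed WT and 10.7, 8.81 and 12.8 in HFD-fed Acod1-/-. The WT groups overlapped, and all 3 knockout libraries lay below them. The diet difference was -0.31 ± 0.21 (adjusted p = 0.246), called without ND-fed WT library 3 or HFD-fed WT library 4 (adjusted p 0.0844 to 0.0983), and the genotype difference was -1.14 ± 0.22 (adjusted p = 0.136).

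Fn14, DR6 and receptors for TRAIL rose with diet in iWAT. Tnfrsf12a (Fn14) read 11.1, 4.45 and 6.74 CPM in ND-fed WT libraries, 24.5, 30.4, 33.9, 59 and 24.7 in HFD-fed WT and 8.77, 12.2 and 26.2 in HFD-fed Acod1-/-, and rose by 2.24 ± 0.46 (SE, adjusted p = 0.00295). Tnfrsf21 (DR6) read 13.1, 15.2 and 11.6 CPM in ND-fed WT libraries, 35.8, 27.6, 29.4, 18.5 and 18.3 in HFD-fed WT and 12, 15.6 and 14.3 in HFD-fed Acod1-/-, and rose by 0.99 ± 0.23 (SE, adjusted p = 0.00537). All HFD-fed WT libraries lay above all ND-fed ones for both. Tnfrsf23 read 3.3, 3.03 and 2.75 CPM in ND-fed WT libraries, 11.4, 12.2, 10.9, 15.4 and 6.87 in HFD-fed WT and 8.1, 5.11 and 11 in HFD-fed Acod1-/-, and rose by 1.93 ± 0.31 (SE, adjusted p = 0.000824). Tnfrsf22 read 4.82, 4.88 and 3.34 CPM in ND-fed WT libraries, 8.48, 10.2, 8.85, 9.58 and 6.81 in HFD-fed WT and 5.35, 5.33 and 6.41 in HFD-fed Acod1-/-, and rose by 1.05 ± 0.21 (SE, adjusted p = 0.00276). The groups were again apart for these decoys, while the third gene of the cluster went the other way. Tnfrsf26 read 4.54, 7.6 and 2.72 CPM in ND-fed WT libraries, 2.75, 2.91, 2.07, 2.92 and 2.9 in HFD-fed WT and 1.31, 1.52 and 1.5 in HFD-fed Acod1-/-, with overlapping WT groups. It fell by 0.84 ± 0.31 (SE, adjusted p = 0.0511), and the call was lost without ND-fed WT library 2 (adjusted p 0.365) and with the header series as a term (adjusted p = 0.251). Tnfrsf10b (TRAIL receptor) read 7.91, 6.86 and 6.79 CPM in ND-fed WT libraries, 11, 8.75, 10.2, 9.65 and 8.41 in HFD-fed WT and 9.31, 6.72 and 7.5 in HFD-fed Acod1-/-. It rose by 0.45 ± 0.17 (SE, adjusted p = 0.0564), a call lost with the header series as a term (adjusted p = 0.284) and without ND-fed WT library 2 or 3 or HFD-fed WT library 1, 3 or 4 (adjusted p 0.102 to 0.172). Tnfrsf11a (RANK) read 6.11, 6.03 and 3.93 CPM in ND-fed WT libraries, 11.6, 5.69, 6.85, 9.97 and 5.55 in HFD-fed WT and 4.19, 5.65 and 4.39 in HFD-fed Acod1-/-. These ranges overlapped, and the diet difference of 0.60 ± 0.29 (adjusted p = 0.122) was called without HFD-fed WT library 5 (adjusted p = 0.085).

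The BAFF receptors Tnfrsf13c and Tnfrsf13b fell with diet, while the third receptor of the branch, Tnfrsf17, was under the minimum, at 1.79 (adjusted p = 0.0544) when tested without it. Tnfrsf13c (BAFF receptor) read 32.9, 46.5 and 32.8 CPM in ND-fed WT libraries, 0.15, 0.102, 0.303, 0.0982 and 2.48 in HFD-fed WT and 0, 0 and 0.0243 in HFD-fed Acod1-/-. Its counts in the knockout libraries were 0, 0 and 1, so the fitted genotype difference of -5.80 ± 1.78 (adjusted p = 0.164) depends on the prior count of the fit and bounds nothing. Among HFD-fed WT libraries, number 5 stood far above the other 4. Tnfrsf13b (TACI) read 31.7, 49.3 and 35.3 CPM in ND-fed WT libraries, 4.3, 2.01, 2.63, 5.5 and 5.05 in HFD-fed WT and 2.6, 0.979 and 1.89 in HFD-fed Acod1-/-. It fell by 3.28 ± 0.36 (SE, adjusted p = 0.00014) and Tnfrsf13c fell by 5.81 ± 0.92 (SE, adjusted p = 0.00078), both without overlap between the WT groups. Tnfrsf13c reached a group mean of 1 CPM only in ND-fed WT mice, so its entry into the test fixed its direction.

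The costimulatory receptors of T cells fell as well. Tnfrsf4 (OX40) read 4.0, 7.0 and 7.08 CPM in ND-fed WT libraries, 1.48, 1.2, 0.91, 0.516 and 2.9 in HFD-fed WT and 0.437, 1.39 and 0.388 in HFD-fed Acod1-/-. Tnfrsf9 (4-1BB) read 3.84, 5.29 and 2.81 CPM in ND-fed WT libraries, 0.90, 0.663, 1.47, 0.786 and 0.921 in HFD-fed WT and 0.695, 0.915 and 0.68 in HFD-fed Acod1-/-. Tnfrsf18 (GITR) read 3.95, 8.01 and 6.29 CPM in ND-fed WT libraries, 0.175, 0.28, 0.278, 0.884 and 2.66 in HFD-fed WT and 0.232, 1.07 and 0.17 in HFD-fed Acod1-/-. In each, the ND-fed libraries lay above every HFD-fed one. Tnfrsf9 and Tnfrsf18 reached a group mean of 1 CPM only in ND-fed WT mice, so their entry into the test fixed their direction. Tnfrsf4 fell by 2.07 ± 0.55 (SE, adjusted p = 0.0118), Tnfrsf9 fell by 2.04 ± 0.34 (SE, adjusted p = 0.00101) and Tnfrsf18 fell by 2.77 ± 0.85 (SE, adjusted p = 0.0231). With the header series as a term, Tnfrsf4 (adjusted p = 0.119) and Tnfrsf18 (adjusted p = 0.179) were not called. Tnfrsf14 (HVEM) read 5.03, 7.25 and 5.67 CPM in ND-fed WT libraries, 2.03, 0.433, 2.1, 0.712 and 1.38 in HFD-fed WT and 2.24, 0.758 and 0.801 in HFD-fed Acod1-/-, and fell by 2.14 ± 0.52 (SE, adjusted p = 0.00747). Tnfrsf25 (DR3) read 10.4, 14.1 and 11.3 CPM in ND-fed WT libraries, 6.68, 2.96, 5.71, 2.51 and 3.78 in HFD-fed WT and 2.78, 6.6 and 3.4 in HFD-fed Acod1-/-, and fell by 1.43 ± 0.36 (SE, adjusted p = 0.00862). The WT groups were apart for both. Tnfrsf8 (CD30), the receptor of Tnfsf8, had a diet difference of -0.03 ± 0.32 (adjusted p = 0.942).

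No member was called for genotype in iWAT by edgeR (0% of all genes called in either direction, smallest adjusted p over all genes 0.108). At an unadjusted p under 0.05, 12 of 24 members were lower and 0 higher, against 1406 genes lower and 1062 higher over all genes. DESeq2 called 7 members lower, and 4.33% of all genes. The median difference was -0.70, against -0.01 over all genes, and 23 of 24 values were below 0, the exception being Tnfsf14. The HFD-fed WT and knockout libraries did not overlap for 7 members, all lower in the knockout (4.6% of all genes lower and 3.66% higher). They were Tnfrsf1a, Tnfrsf1b, Tnfrsf13c, Tnfrsf21, Tnfrsf22, Tnfrsf26 and Tnfsf8. Of these, Tnfrsf13c (0, 0 and 1) and Tnfsf8 (0, 2 and 2) had next to no counts in the knockout libraries. Summed macrophage markers ran from 502 to 597 CPM in ND-fed WT, from 637 to 1565 in HFD-fed WT and from 544 to 590 in knockout iWAT, and their part in these values was not tested. Within the first header series alone, which left 2 knockout libraries, 6 members were called lower (7.84% of all genes): Tnfrsf1b (adjusted p = 0.0355), Tnfrsf12a (0.042), Tnfsf10 (0.0658), Tnfrsf22 (0.0664), Tnfrsf21 (0.0732) and Tnfrsf23 (0.0838). Without HFD-fed WT library 5, Tnfrsf1b (0.0706), Tnfsf10 (0.0803), Tnfrsf13c (0.0872) and Tnfrsf21 (0.0875) were called lower (0.93% of all genes). Without knockout library 3, Tnfrsf1b (0.0218), Tnfrsf12a (0.0426), Tnf (0.0507), Tnfrsf21 (0.0698) and Tnfrsf22 (0.0854) were called lower (8.5% of all genes).

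HFD-fed Acod1-/- iWAT differed from ND-fed WT iWAT in 17 of 24 members, 3 higher and 14 lower (18.5% and 16.1% of all genes). The 3 were Tnfrsf1a (0.58 ± 0.10, adjusted p = 0.00245), Tnfrsf23 (1.43 ± 0.33, adjusted p = 0.00872) and Tnfsf12 (0.97 ± 0.33, adjusted p = 0.0514). The 14 included Tnf (-3.56 ± 0.67, adjusted p = 0.00297) and Tnfrsf1b (-1.45 ± 0.24, adjusted p = 0.00148). Of the 24 tested, 6 (Tnfrsf9, Tnfrsf13c, Tnfrsf18, Tnfsf8, Tnfsf11 and Tnfsf14) reached a group mean of 1 CPM only in ND-fed WT mice. Their entry into the test fixed their direction here too, so that the count of lower members is in part set by the minimum. The call on Tnfsf12 was lost without ND-fed WT library 2 or 3 or HFD-fed Acod1-/- library 1 (adjusted p 0.131 to 0.202).

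The depots were compared in a fit over all 25 libraries, with 15034 genes tested. In ND-fed WT mice, 3 of 22 members were higher in eWAT than in iWAT and 10 lower (17.5% and 14.2% of all genes). Of the 10, 4 (Tnfrsf9, Tnfrsf13c, Tnfrsf18 and Tnfsf8) reached a group mean of 1 CPM only in ND-fed WT iWAT, so that their entry into the test fixed their direction. Higher were Tnfrsf1a (0.73 ± 0.11, adjusted p = 4.8e-05), Tnfrsf11b (2.93 ± 0.83, adjusted p = 0.0129) and Tnfsf12 (0.69 ± 0.29, adjusted p = 0.0824), and the lower ones included Tnf (-3.04 ± 0.68, adjusted p = 0.00258), Tnfsf10 (-1.25 ± 0.26, adjusted p = 0.00146), Tnfrsf13c (-7.73 ± 1.11, adjusted p = 3.4e-05) and Tnfrsf13b (-4.17 ± 0.46, adjusted p = 1.8e-06). The call on Tnfsf12 was lost without ND-fed WT eWAT library 1 or 3 or any 1 of the ND-fed WT iWAT libraries (adjusted p 0.104 to 0.224). In HFD-fed WT mice, 6 were higher in eWAT and 2 lower (10.8% and 7.75%). Tnfrsf13b had turned, at 1.27 ± 0.36 (adjusted p = 0.0239), and the widest was the RANK decoy Tnfrsf11b (3.22 ± 0.68, adjusted p = 0.00374), followed by RANK itself (Tnfrsf11a, 2.03 ± 0.40, adjusted p = 0.00231). Tnfrsf11b read 6.78, 3.46, 2.12 and 1.5 CPM in ND-fed WT libraries, 1.7, 1.29, 2.17, 4.66 and 3.42 in HFD-fed WT and 4.53, 2.26, 0.736, 6.26 and 4.24 in HFD-fed Acod1-/- in eWAT, against at most 0.702 CPM in any iWAT library. The group means of Tnfrsf11b reached 1 CPM only in eWAT, and its counts per iWAT library were 0 to 30. Its entry into this fit thus favored a higher value in eWAT. In HFD-fed Acod1-/- mice, 2 members were higher and 1 lower (2.01% and 1.8%).

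The diet effect itself differed between depots for 13 of 22 members, 11 with a larger value in eWAT and 2 with a larger value in iWAT (14% and 15% of all genes). The same 4 genes that entered through ND-fed WT iWAT alone were among the 11, so that the count is in part set by the minimum. For Tnfrsf13b the difference of the effects was 5.44 ± 0.58 (adjusted p = 2.1e-06), since the gene rose in eWAT and fell in iWAT. Tnfsf13b behaved likewise, at 2.33 ± 0.48 (adjusted p = 0.00158). Tnfrsf1b was called in eWAT and not in iWAT, and the difference of the effects was 1.87 ± 0.50 (adjusted p = 0.0102). Tnfrsf1a was called in iWAT and not in eWAT, with a difference of -0.62 ± 0.14 (adjusted p = 0.00285). Neither edgeR nor DESeq2 called the genotype effect as different between depots for any member (0 and 0.00665% of all genes, smallest adjusted p among members 0.281, 2 members positive and 2 negative at an unadjusted p under 0.05).

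Superfamily genes under other symbols and the genes of the pathway were read from lists made by role. Cd40, the receptor through which T cells activate B cells and macrophages, rose in eWAT with diet (2.24 ± 0.47, adjusted p = 0.00263) and fell with genotype (-1.75 ± 0.42, adjusted p = 0.0208), and in iWAT it fell with diet (-2.37 ± 0.32, adjusted p = 0.000325). The lymphotoxins Lta (-4.05 ± 0.88, adjusted p = 0.00422) and Ltb (-4.11 ± 0.99, adjusted p = 0.00717) and the CD40 ligand Cd40lg (-4.48 ± 0.99, adjusted p = 0.00655) fell with diet in iWAT. Ltbr, their stromal receptor, rose with diet in eWAT (0.51 ± 0.18, adjusted p = 0.0343) and iWAT (1.04 ± 0.10, adjusted p = 9.4e-05).

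Among TRAF and other receptor adaptors, 3 of 15 rose and 4 fell with diet in eWAT, where Traf5 rose (1.32 ± 0.19, adjusted p = 0.000382) and Birc2 fell (-0.58 ± 0.11, adjusted p = 0.00166). With genotype 2 rose and 3 fell, Traf5 among the latter (-1.07 ± 0.17, adjusted p = 0.011). In iWAT 0 of 16 rose and 8 fell with diet, including Traf1 (-2.83 ± 0.31, adjusted p = 0.000136) and Birc3 (-1.75 ± 0.17, adjusted p = 9.1e-05), which encode signaling partners of TNFR2. Of the NF-kB kinases and transcription factors, 6 of 15 rose and 4 fell with diet in eWAT, with genotype 1 rose and 4 fell, and in iWAT 1 rose and 9 fell with diet. The inhibitor gene Nfkbie rose in eWAT on HFD (1.32 ± 0.23, adjusted p = 0.000894), was lower in the knockout (-0.91 ± 0.21, adjusted p = 0.0168) and fell in iWAT (-2.30 ± 0.32, adjusted p = 0.000393). The background shares of called genes are those given above for each comparison.

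Another list held genes that TNF is known to induce and also Tnfaip8l2, which was entered for its name, after Tnfaip8. Of 13 tested, 6 were higher and 1 lower with diet in eWAT, with a median of 0.84. The higher ones included the monocyte attractant Ccl2 (3.26 ± 0.60, adjusted p = 0.00129) and Tnfaip8l2 (2.73 ± 0.43, adjusted p = 0.000605). With genotype 0 rose and 5 fell, among them Icam1 (-1.04 ± 0.20, adjusted p = 0.0111) and Tnfaip2 (-1.19 ± 0.32, adjusted p = 0.0303). In iWAT 3 of 12 rose and 3 fell with diet, with Ccl2 (3.06 ± 0.70, adjusted p = 0.00553) among the former and Icam1 (-1.27 ± 0.20, adjusted p = 0.000765) among the latter. Of 5 genes that shed or process TNF, Adam17, the TNF converting enzyme, rose with diet in eWAT (0.72 ± 0.22, adjusted p = 0.018) and fell with genotype (-0.92 ± 0.21, adjusted p = 0.0157). Among 6 necroptosis and apoptosis effectors, 4 rose and 0 fell with diet in eWAT, and 0 rose and 2 fell with genotype. Ripk3, the necroptosis kinase, was in both groups (1.10 ± 0.28, adjusted p = 0.00738 and -1.08 ± 0.26, adjusted p = 0.02), as was Bax. A list of 9 genes joined ubiquitin brakes of the pathway with genes of linear ubiquitin (Rbck1, Rnf31 and Sharpin), which are not brakes. Of the 9, 2 rose and 2 fell with diet in eWAT, and 2 fell with genotype. In iWAT 1 rose and 5 fell with diet. These 5 included the brake Tnfaip3, which encodes A20 (-1.40 ± 0.25, adjusted p = 0.00138), and the linear ubiquitin gene Rnf31 (-0.69 ± 0.13, adjusted p = 0.00159). No gene of these lists was called for genotype in iWAT.

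The remaining members were too low to be tested. In eWAT 16 of 33 fell under the minimum of 1 CPM on average, with 0 to 142 counts per library, and without the minimum edgeR called none of them for diet or genotype, with an unadjusted p under 0.05 for Tnf in both comparisons and for Tnfrsf9 (4-1BB) in genotype. In iWAT 9 of 33 fell under it, with 0 to 106 counts, and without the minimum Tnfrsf17 (BCMA of plasma cells, 1.79, adjusted p = 0.0544) was called higher with diet and Tnfrsf19 (-3.04, adjusted p = 0.0536) and Tnfsf4 (OX40 ligand, -4.29, adjusted p = 0.0991) lower. Tnfsf15 and Tnfsf18 reached at most 0.304 and 0.283 CPM in any library. Tnfsf13 (APRIL) shares 60.0% of its exon bases with Tnfsfm13 on the same strand and 13.5% with Tnfsf13os on the opposite strand, so its level, 0.109 to 2.67 CPM over the libraries, is uncertain.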

How the data were processed

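Per the labels and the study's methods, the authors prepared directional mRNA libraries from snap-frozen tissue, trimmed reads with cutadapt, removed contaminants and aligned to GRCm38 (mm10) with STAR. The program that counted reads, and whether it used strand, are not given in the sources used here. The deposited tables give whole-number counts per gene and 2 columns of FPKM. The column that was checked followed from the counts and the cDNA lengths to within 0.0005, and the other was not compared. FPKM was not used further. Between 6.41% and 11.9% of reads had no feature and 1.52% to 2.07% were ambiguous, and these lines were left out of library sizes.

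Counts were tested with edgeR 4.0.16 (R 4.3.3), TMM, glmQLFit and glmQLFTest, one fit of 3 groups per depot and one of 6 groups over both, on genes whose mean reached 1 CPM, with Benjamini-Hochberg adjustment over all genes tested. Each standard error is the absolute log2 fold change divided by the square root of the F statistic of its test. It was not read from the fitted model. The fit was also run on simulated counts as a check of the code, with the outcome not given here. Per-library values were written for Tnf and every member called in a diet or genotype comparison, and genes of the lists were named where they were called and had one of the 3 smallest adjusted p of their list. The members and lists were chosen with earlier results of these data known. Alternatives were other filters and scalings, DESeq2 1.42.0, the replicate number as a block, the header series as a term or its first part alone, the compared groups alone, a threshold of 0.05, and each library left out in turn. No 2 libraries of a group agreed within sampling noise. Sequences came from RefSeq (GRCm38.p6).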

Additional observations from a re-analysis of the deposited data

Results flagged for a closer look

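In 6 of 75 checks of a member within a group of 4 or 5 libraries, 1 library stood apart from the others by Dixon's criterion, where chance gives about 1 in 20. Tnfrsf21 read 25.1 CPM in ND-fed WT eWAT library 2, against 13.8 to 15 in the other libraries of the group. Tnfrsf4 read 0.645 CPM in HFD-fed WT eWAT library 2, against 1.55 to 1.90. Tnfsf12 read 54.0 CPM in HFD-fed WT eWAT library 1, against 28.3 to 32.1. In iWAT, Tnfrsf26 read 2.07 CPM in HFD-fed WT library 3, against 2.75 to 2.92. HFD-fed WT iWAT library 5 stood apart for both Tnfrsf13c (2.48 CPM against 0.0982 to 0.303) and Tnfsf8 (2.5 CPM against 0.0765 to 0.25), and it is also the HFD-fed WT iWAT library with the highest sums of T cell markers (91.8 CPM) and lymph node markers (16.4 CPM).

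The diet effect differed between the depots for 13 members, given here as the eWAT effect minus the iWAT effect on the log2 scale with edgeR's adjusted p. For the BAFF branch the difference was 5.44 ± 0.58 for Tnfrsf13b (adjusted p = 2.1e-06), 6.38 ± 1.27 for Tnfrsf13c (adjusted p = 0.00124) and 2.33 ± 0.48 for Tnfsf13b (adjusted p = 0.00158). For the TNF branch it was 3.52 ± 0.87 for Tnf (adjusted p = 0.00622), 1.87 ± 0.50 for Tnfrsf1b (adjusted p = 0.0102) and -0.62 ± 0.14 for Tnfrsf1a (adjusted p = 0.00285). Members known from T cells differed by 2.92 ± 0.86 (Tnfrsf9, adjusted p = 0.0184), 2.25 ± 0.71 (Tnfrsf4, adjusted p = 0.0268), 3.50 ± 1.05 (Tnfrsf18, adjusted p = 0.0203) and 3.73 ± 1.30 (Tnfsf8, adjusted p = 0.0442), the last of which was lost without HFD-fed WT eWAT library 2 (adjusted p = 0.114). Tnfrsf13c, Tnfrsf9, Tnfrsf18 and Tnfsf8 reached a group mean of 1 CPM only in ND-fed WT iWAT, so their entry into the test favored a positive difference. The others were Tnfrsf11a at 1.82 ± 0.60 (adjusted p = 0.0352), Tnfrsf26 at 1.61 ± 0.68 (adjusted p = 0.0946) and Tnfrsf22 at -0.73 ± 0.28 (adjusted p = 0.0648). Tnfrsf26 was called in 9 of 25 fits with a library left out, and Tnfrsf22 in 20 of 25.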

How the results depend on the processing

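Of 99 called differences of members, no alternative turned one. DESeq2 gave an adjusted p for 94 of them and ended none of these. Its size factors in edgeR ended none of the 99. At 1 CPM in every library, 53 were still tested. Over all alternatives, 2181 values stayed called and 191 did not, 123 of the latter with 1 library left out. At 1 CPM in every library, 1 member was lower with diet in eWAT, 3 were lower with diet in iWAT, 1 was lower with genotype in iWAT, 2 and 7 differed between HFD-fed Acod1-/- and ND-fed WT mice in eWAT and iWAT, 4 and 0 differed between depots in ND-fed WT and HFD-fed Acod1-/- mice, and 5 differed in their diet effect between depots, where fewer members were tested. Without a minimum, 0 members were higher with genotype in eWAT, 1 differed between knockout and ND-fed WT eWAT, and 1 was lower with genotype in iWAT. With the header series as a term, 1 member was lower with diet in eWAT, 8 in iWAT, and 0 differed between knockout and ND-fed WT eWAT. With that term 1 member, Tnfrsf13c, was lower with genotype in iWAT (adjusted p = 0.0284), on 0, 0 and 1 counts in the knockout libraries. In the first series alone, 6 were lower with genotype in iWAT, and DESeq2 called 7. In eWAT the first series gave 10 lower and 1 higher with genotype, without Tnfrsf4 and with Tnfrsf26 and Tnf, which reached the minimum there (-1.82, adjusted p = 0.0450). Tnf reached a group mean of 1 CPM in eWAT only in HFD-fed WT mice, so its entry favored a lower value in the knockout. Shares of all genes called under an alternative were taken only for the iWAT genotype fits where they are given above. No other count of this section, with a library left out or with the block included, can be set against such a share. With the compared groups alone, 0 were higher with genotype in eWAT and 2 differed between knockout and ND-fed WT. At an adjusted p under 0.05 these were 0 and 1, and 1 differed between depots in knockout mice. Why these counts moved was otherwise not tested.

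With 1 library left out, members higher and lower with diet numbered 8 to 10 and 2 in eWAT and 6 to 9 and 9 to 14 in iWAT. With genotype, 0 to 1 were higher and 5 to 10 lower in eWAT (5 without HFD-fed WT library 4, 6 without HFD-fed WT library 1 or knockout library 3 or 4), and 0 to 5 were lower in iWAT (4 without HFD-fed WT library 5, 5 without knockout library 3). Between knockout and ND-fed WT, 0 to 4 differed in eWAT and 14 to 18 in iWAT. Between depots 9 to 14, 7 to 9 and 1 to 4 differed in ND-fed WT, HFD-fed WT and knockout mice (1 without eWAT knockout library 4 or iWAT knockout library 2), and diet and genotype effects differed for 10 to 13 and 0 to 3 (2 without eWAT knockout library 5, 3 without iWAT knockout library 3).

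Replicate numbers recur across groups. Whether they pair the samples cannot be decided here, since pairs with different numbers were not compared. Deviations from the group means correlated above 0.1 in 8 of 13 same-numbered pairs in eWAT (-0.225 to 0.257) and 3 of 9 in iWAT (-0.272 to 0.313). Between depots they did so in 3 of 5 HFD-fed WT (-0.0931 to 0.572), 2 of 3 ND-fed WT (0.0536 to 0.249) and 1 of 3 knockout pairs (-0.135 to 0.146). With the replicate number as a block, 8 members were higher and 2 lower with diet and 0 higher (Tnfrsf25, 0.77, adjusted p = 0.121) and 9 lower with genotype in eWAT, 7 and 12 with diet and 0 and 0 with genotype in iWAT, 1 and 17 differed between knockout and ND-fed WT, 14, 8 and 1 between depots, and 12 and 2 in their diet and genotype effects.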
